A study of Mus musculus with 8 samples.

Results

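The genes of the mitochondrial ribosomal proteins were followed in developing mouse fat between embryonic stage e15.5 and P12, postnatal day 12. The set holds every gene on the array whose symbol begins with Mrpl (large subunit) or Mrps (small subunit) followed by a number. It came to 110 probes and 76 genes, of 16593 named genes in all. Where a gene had several probes, the brightest on average stood for it. A level of at least 7.5 on the log2 intensity scale on 2 or more arrays was required for testing. It was reached by 67 of the 76 genes and by 7446 features (genes or unnamed probes) in all. Mrps36, now known as a subunit of the oxoglutarate dehydrogenase complex and not of the ribosome, was 1 of the 9 genes that missed this level. The others were Mrpl15, Mrpl19, Mrpl21, Mrpl32, Mrpl39, Mrpl45, Mrpl57 and Mrps14. Their values lay between 6.73 and 7.58 on every array. The 67 tested genes comprised 42 proteins of the large subunit and 25 of the small subunit, with Mrps18a and Mrps30 counted in the large subunit, where their proteins sit despite their names.

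The samples were total RNA of C57BL/6 fat, with no genetic change or treatment given in the labels. There were 4 postnatal stages (P0, P2, P5, P12) and 4 embryonic stages, at daily steps between e15.5 and e18.5. Each stage was 1 pool on 1 Illumina MouseRef-8 array, and the labels put the pool size at 3 or more embryos in one place and at 4 in another. The fat depot is not given, and the treatment protocol names white adipose tissue.

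Mitochondrial ribosomes translate the few proteins that the mitochondrial genome still encodes, all of them subunits of the respiratory chain or of ATP synthase. Every protein of these ribosomes is encoded in the nucleus, made in the cytosol and imported. Many have a bacterial counterpart, and others occur only in mitochondrial ribosomes. A fat cell that builds up oxidative capacity, a brown or beige adipocyte above all, needs these ribosomes to make the core of complexes I, III, IV and ATP synthase, while the remaining subunits come from cytosolic translation.

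No array had a replicate, so the number of arrays limits the precision. Every error marked SE below is the standard error of a line, curve or difference fitted over the 8 arrays. The deposited values had the same distribution on all 8 arrays (sorted values equal to within 0.005), which hides any change in total RNA signal. The pools differed in content. The mean level of 16 skeletal muscle markers was 12.26 at e15.5 and 11.24 at P0, against 7.56 to 8.79 at the other stages. The mean of 10 epidermal markers was 11.63 at e15.5 and 10.42 at P0, against 7.31 to 9.30 elsewhere. Of 14 adipocyte markers, all were higher at e18.5 than at e15.5, and 11 rose over the series. Fewer cells of a type and less RNA per cell cannot be told apart in such pools. The counts over the set that rest on e15.5 or P0 are given below with and without those arrays.

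Promoter sequences are shown for 6 of the genes whose values are given below, because they show the motifs that recur in the set. RefSeq's table (GRCm38.p6, 250 bases before to 50 after the gene's start) held 67 of the 76 genes, and the first listed start of each was used. The others were Mrpl4, Mrpl13, Mrpl15, Mrpl19, Mrpl38, Mrpl54, Mrps28, Mrps34 and Mrps35. Each promoter found there was searched on both strands for sequences known to be bound by regulators of nuclear mitochondrial genes: GCGCANGCG for NRF1, CCGGAAG for the ETS factor GABP, and AANATGGCG for YY1. Capitals mark these motifs and the CCAAT box, and a motif on the other strand appears as its reverse complement. The windows lie at chr11:5707652-5707951 (minus strand) for Mrps24, chr1:42850983-42851282 (plus strand) for Mrps9, chr11:120484387-120484686 (plus strand) for Mrpl12, chr13:99344536-99344835 (plus strand) for Mrps27, chr17:46645971-46646270 (plus strand) for Mrpl2 and chr5:129715247-129715546 (plus strand) for Mrps17.
Mrps24 promoter: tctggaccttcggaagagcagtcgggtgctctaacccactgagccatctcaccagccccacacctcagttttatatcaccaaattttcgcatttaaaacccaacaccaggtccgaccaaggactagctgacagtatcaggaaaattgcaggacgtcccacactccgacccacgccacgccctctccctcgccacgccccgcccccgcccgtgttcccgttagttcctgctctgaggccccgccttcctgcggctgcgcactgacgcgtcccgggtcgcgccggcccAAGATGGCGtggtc
Mrps9 promoter: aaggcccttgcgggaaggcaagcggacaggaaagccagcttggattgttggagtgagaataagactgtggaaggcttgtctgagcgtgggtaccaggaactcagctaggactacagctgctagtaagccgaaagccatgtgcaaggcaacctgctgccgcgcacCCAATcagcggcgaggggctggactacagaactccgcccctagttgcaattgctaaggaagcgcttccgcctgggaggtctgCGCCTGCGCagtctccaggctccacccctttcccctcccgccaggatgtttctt
Mrpl12 promoter: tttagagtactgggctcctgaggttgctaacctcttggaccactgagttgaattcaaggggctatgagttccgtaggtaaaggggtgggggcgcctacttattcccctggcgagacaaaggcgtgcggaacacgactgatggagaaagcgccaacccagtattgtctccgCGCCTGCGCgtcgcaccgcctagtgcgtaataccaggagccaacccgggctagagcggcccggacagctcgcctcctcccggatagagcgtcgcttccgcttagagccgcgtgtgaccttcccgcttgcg
Mrps27 promoter: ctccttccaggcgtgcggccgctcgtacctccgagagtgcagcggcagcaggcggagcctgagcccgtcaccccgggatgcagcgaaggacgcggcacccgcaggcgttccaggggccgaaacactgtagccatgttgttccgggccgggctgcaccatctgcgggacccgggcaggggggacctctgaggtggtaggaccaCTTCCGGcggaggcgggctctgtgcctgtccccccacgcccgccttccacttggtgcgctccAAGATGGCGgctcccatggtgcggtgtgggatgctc
Mrpl2 promoter: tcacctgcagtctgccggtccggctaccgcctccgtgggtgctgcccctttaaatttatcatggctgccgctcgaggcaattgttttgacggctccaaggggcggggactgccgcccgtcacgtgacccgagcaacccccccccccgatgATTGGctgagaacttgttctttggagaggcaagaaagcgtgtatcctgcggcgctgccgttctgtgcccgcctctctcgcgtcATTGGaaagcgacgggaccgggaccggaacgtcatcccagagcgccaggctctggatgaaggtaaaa
Mrps17 promoter: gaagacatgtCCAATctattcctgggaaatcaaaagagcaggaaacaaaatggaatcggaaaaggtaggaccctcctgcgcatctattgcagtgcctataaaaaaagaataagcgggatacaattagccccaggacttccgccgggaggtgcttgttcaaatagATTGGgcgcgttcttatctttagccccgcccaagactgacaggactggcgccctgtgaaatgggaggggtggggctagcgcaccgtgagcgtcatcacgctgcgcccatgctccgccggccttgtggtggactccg
Mrps24 and Mrps27 held a YY1 motif near the start, Mrps27 a GABP motif as well, and Mrps9 and Mrpl12 each held an NRF1 motif. Mrpl2 and Mrps17 held none of the 3 and had CCAAT boxes. The GABP motif occurred in 25 of the 67 promoters (37.3%), against 11.9% of the 17491 promoters of protein-coding genes searched. Those 17491, called all promoters here, leave out 1 chromosome and any window not of the full 300 bases. The NRF1 motif occurred in 15 (22.4%, against 8.83% of all promoters), and the YY1 motif in 11 (16.4%, against 3.30%). At least 1 of the 3 was present in 41 of the 67 (61.2%), against 21.1% of all promoters, and 10 held 2 or more. Among 50 respiratory chain and ATP synthase promoters, 11 held the GABP motif (22%), 13 the NRF1 motif (26%) and 6 the YY1 motif (12%). Among 56 cytosolic ribosomal promoters, 22 held the GABP motif (39.3%), 7 the NRF1 motif (12.5%) and 5 the YY1 motif (8.93%). The CCAAT box (38.8%, against 39.0%), the Sp1 sequence GGGCGG (50.8%, against 46.3%), the E-box CACGTG (7.46%, against 7.90%) and the ERR sequence AAGGTCA (5.97%, against 4.08%) occurred at shares nearer those of all promoters. None of these sequences is contained in another, and a stretch shared by overlapping motifs was counted under each. The median count of CG dinucleotides was 21.0 in these promoters and 13 in all, and its part in the motif shares was not tested. A match is a description of the sequence, with no measure of binding here.

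Many of these genes also lie head to head with a neighbour. A gene on the opposite strand started within 1000 bases upstream of 23 of the 67 (34.3%), against 14 of 50 respiratory chain promoters (28.0%), 8 of 56 cytosolic ribosomal promoters (14.3%) and 8.04% of all promoters. Mrpl46 and Mrps11, of the large and the small subunit, start 42 bases apart. Mrps12 starts 147 bases from Sars2, which encodes the mitochondrial seryl-tRNA synthetase, and Mrpl43 starts 116 bases from Twnk, which encodes the helicase of mitochondrial DNA. The neighbour was itself measured above the minimum for 12 of these genes. Mrpl46 and Mrps11 count there as neighbours of each other. Of those neighbours 1 rose over the series and 5 fell, where 18.3% of all features rose and 20.7% fell. The counts were not tested against these shares. The rise was in the complex I gene Ndufb5 beside Mrpl47 (slope 0.19 log2 per stage, SE 0.05, limma adjusted p = 0.0138). Examples of the falling ones are Tcp1, a subunit of the cytosolic chaperonin, beside Mrpl18 (-0.11, SE 0.03, adjusted p = 0.0183), and Ncapd2, a condensin subunit, beside Mrpl51 (-0.29, SE 0.04, adjusted p = 0.00248). These neighbours were named after their values were seen.

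The first comparison asked which genes changed steadily with stage. Of the 67 mitochondrial ribosomal genes, 11 rose and 1 fell. The test was a limma line over stage order with Benjamini-Hochberg adjustment over all 7446 features at 0.05. Over all features 18.3% rose and 20.7% fell, so the share that rose (16.4%) lay near the background and the share that fell (1.49%) lay below it. The median slope of the 67 was 0.03 log2 per stage, against 0.00 for all features, and 52 of the 67 slopes were above 0 (77.6%, against 48.3% of all). The changes were small: 61 of the 67 genes stayed within a range of 1 log2 unit over the whole series, against 64.9% of all features. Their median range was 0.63.

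Mrpl2 encodes a large-subunit protein whose bacterial counterpart, L2, lies next to the peptidyl transferase centre. Its log2 level was 10.14, 10.21, 10.64 and 11.07 at e15.5 to e18.5 and 10.91, 10.81, 11.03 and 11.20 at P0 to P12. Most of the difference lay between e16.5 and e18.5, and the periods overlapped. The slope was 0.14 log2 per stage (SE 0.03, limma adjusted p = 0.00843), and the P12 level was 2.08 times that at e15.5. Mrpl20, the counterpart of bacterial L20, had 8.25, 8.47, 8.85 and 9.15 before birth and 9.37, 9.15, 9.30 and 9.17 after it. It climbed until P0 and was then level, and its slope was also 0.14 (SE 0.03, adjusted p = 0.0144). Without e15.5 and P0, neither Mrpl2 (0.12, adjusted p = 0.0569) nor Mrpl20 (0.11, adjusted p = 0.0552) passed. Mrpl4, whose bacterial counterpart lines the exit tunnel, had 8.23, 8.51, 8.78 and 8.88 in the embryonic stages and 8.93, 8.63, 9.07 and 9.11 in the postnatal ones. The P2 array was the low point after birth (slope 0.10, SE 0.03, adjusted p = 0.0193), and the slope was not past the threshold under 9 of 21 other settings.

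The small subunit contributed 7 of the 11 rises. Mrps34, a protein found only in mitochondrial ribosomes, had 10.92, 10.89, 11.35 and 11.51 in the embryonic stages, and 11.55, 11.64, 11.75 and 11.77 in the postnatal stages. All postnatal arrays lay above all embryonic ones. Its slope of 0.13 (SE 0.02, adjusted p = 0.00339) stayed past the threshold under all 21 other settings tried. Mrps24, the counterpart of bacterial S3 at the entry of the mRNA channel, had 11.99, 12.13, 12.16 and 12.28 before birth and 12.52, 12.42, 12.75 and 12.81 after it. The periods again did not overlap. Its slope was 0.12 (SE 0.02) with the smallest adjusted p of the set, 0.00242.

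Mrps10, the counterpart of bacterial S10, had 8.98, 9.06, 9.12 and 9.18 in the embryonic stages and 9.35, 9.19, 9.88 and 9.77 in the postnatal ones. Its level stepped up between P2 and P5, and the slope of 0.12 (SE 0.03, adjusted p = 0.00994) was not past the threshold without P5 and P12 (0.06, adjusted p = 0.186). Mrps28, a further small-subunit protein, had 8.94, 8.93, 9.39 and 9.41 before birth and 9.82, 9.45, 9.60 and 9.64 after it. It was highest at P0, an array high in muscle and epidermal markers (slope 0.11, SE 0.03, adjusted p = 0.0243; 0.09 and adjusted p = 0.0503 without e15.5 and P0). Mrps9, the counterpart of bacterial S9, had 9.76, 9.84, 10.07 and 10.25, then 10.30, 10.07, 10.29 and 10.68. Its highest array was P12 (slope 0.10, SE 0.02, adjusted p = 0.012; 0.08 and adjusted p = 0.0726 without P12; 0.10 and adjusted p = 0.0627 without e15.5 and P0). The other 3 that rose were Mrps35 (slope 0.09, SE 0.03, adjusted p = 0.0392), Mrps31 (0.08, SE 0.03, adjusted p = 0.0444) and Mrpl18 (0.07, SE 0.02, adjusted p = 0.0481). These lay close to the threshold: Mrps35 was not past it under 11 of 21 other settings, Mrps31 under 13 of 20 and Mrpl18 under 16 of 20.

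Mrps17, the counterpart of bacterial S17, was the only member past the threshold downwards. It had 11.90, 11.87, 12.02 and 11.65 in the embryonic stages and 11.85, 11.67, 11.42 and 11.33 in the postnatal stages. The lowest arrays were P5 and P12. It fell by 0.08 per stage (SE 0.02, adjusted p = 0.0202), although the sign turned (0.04, adjusted p = 0.179) when each array was centred on the cytosolic ribosomal protein genes.

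**Figure D1:**
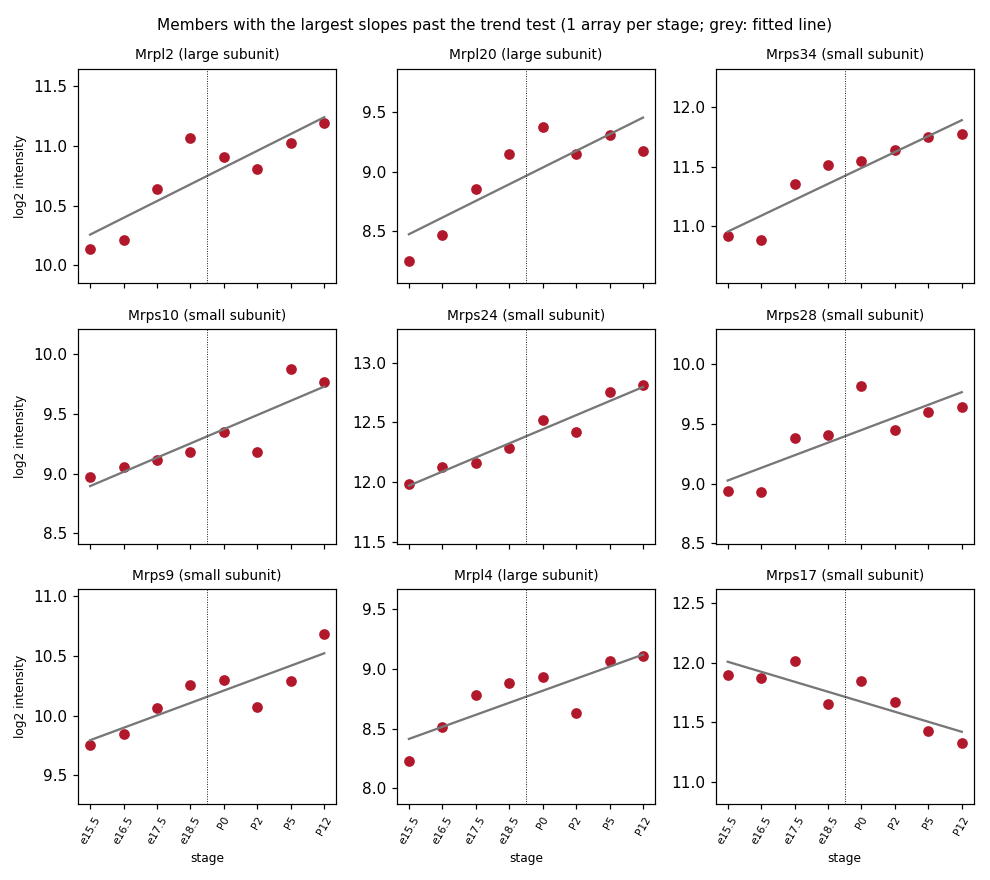
Log2 intensity (y axis) by stage (x axis) for the 8 members with the largest slopes among those past the trend test upwards and for Mrps17, the 1 past it downwards, 1 point per array, with the fitted line in grey and birth as a dotted line. Mrps24 and Mrps34 follow the line closely, Mrps10 steps up at P5, and Mrpl2 reaches 11.07 already at e18.5.

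The number that rose depended on the arrays used and on the time scale, and so did the share of all features that rose. It was 3 of 67 without e15.5 and P0 (12.4% of all features), with a median slope of 0.02 for the 67, and 4 without e15.5 alone (12.5%). Without P5 and P12 it was 2 (7.56%). It was 6 without e16.5 (12.7%) and 6 without P12 (12%). On a scale of days 4 rose (12.1%) and on log2 days 17 (18.4%). With the muscle marker mean as a covariate 6 passed (10.9%), and with the epidermal marker mean 2 passed (9.17%). Centring each array on the cytosolic ribosomal genes raised the median slope of all features to 0.12 and that of the members to 0.16, with 64 members past the threshold upwards and 0 downwards (61.6% and 2.99% of all features), against 11 and 1 with the values as deposited.

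By subunit, 4 of 42 large-subunit genes (9.52%) and 7 of 25 small-subunit genes (28.0%) rose, and their median slopes were equal at 0.03. Among genes with a bacterial counterpart 8 of 42 rose (median slope 0.05), and among those particular to mitochondria 3 of 25 (0.02). Of the paralogues of bacterial S18 named below, Mrps18b was counted among those particular to mitochondria. Mrps18a and Mrps18c were counted among those with a bacterial counterpart. These splits were not tested against each other. Of 16 genes with more than 1 probe past the minimum, 12 had slopes of the same sign on all such probes. Mrpl48, Mrps7, Mrps18b and Mrps33 did not, and their signs below are those of the brightest probe.

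Stage by stage, the mitochondrial ribosomal genes and the respiratory chain were both higher at e17.5 and then followed different courses. The e17.5 level was above e16.5 in nearly every gene: 62 of 67 mitochondrial ribosomal genes (median difference 0.23) and 62 of 62 genes of complexes I to IV and ATP synthase (0.45), against 42.6% of all features (-0.05). With each array centred on the cytosolic ribosomal genes these counts were 64 and 62, against 55.35% of all features. The epidermal marker mean was 7.5 at e17.5 and 9.30 at e16.5, and the muscle mean 8.59 and 8.79. At the same step 14 of 14 adipocyte markers were higher (median difference 1.38), 18 of 18 cell cycle genes were lower (-0.40) and 5 of 6 erythroid genes were lower (-0.99). The part of these markers in the step was not tested.

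The median difference of the mitochondrial ribosomal genes from e15.5 was 0.10, 0.34 and 0.33 in the embryo at e16.5, e17.5 and e18.5, then 0.36 at birth, 0.27 at P2, 0.28 at P5 and 0.31 at the last stage. After e17.5 it was nearly level. The respiratory chain stood at 0.02, 0.48, 0.77, 0.66, 0.47, 0.73 and 1.05 at the same stages and was higher again at e18.5 and from P2 to P12. Brown fat markers differed over these stages as well. The median level of 6 of them was 7.99, 7.14, 8.06 and 10.27 at e15.5 to e18.5. After birth it was 9.23, 9.14, 12.91 and 12.66 at P0, P2, P5 and P12. The part of brown fat content in either course was not tested. The mitochondrial ribosomal genes and the respiratory chain are compared by counts and medians, with no test between them. The medians of all features stayed between -0.02 and 0.08.

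**Figure D2:**
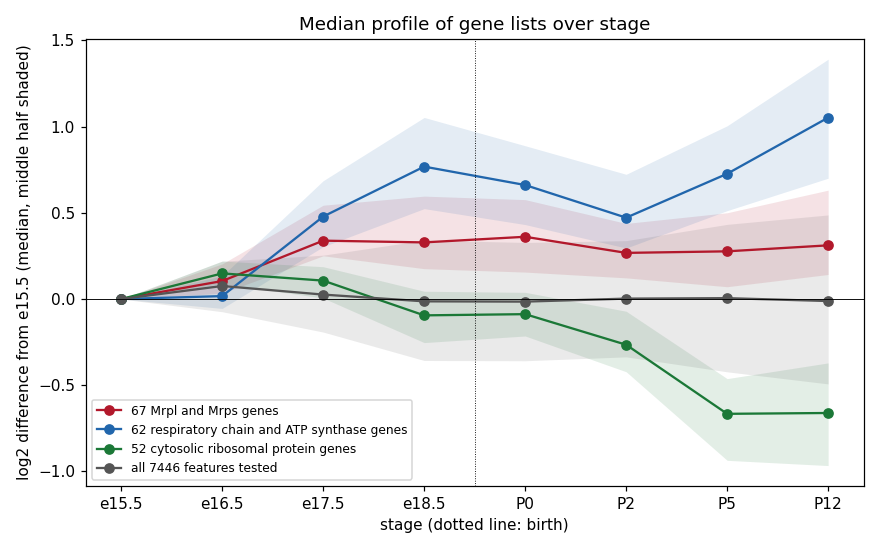
Median log2 difference from e15.5 (y axis) by stage (x axis) for 67 mitochondrial ribosomal genes, 62 respiratory chain and ATP synthase genes, 52 cytosolic ribosomal protein genes and all 7446 features, with the interquartile range shaded and birth as a dotted line. The mitochondrial ribosomal genes reach 0.34 at e17.5 and stand at 0.31 at P12, while the respiratory chain goes on to 1.05.

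From e15.5 to e18.5 the level was higher in 59 of 67 mitochondrial ribosomal genes (median 0.33) and 60 of 62 respiratory chain genes (0.77), against 48.9% of all features. Measured from e16.5, which leaves out the array richest in muscle and epidermal markers, e18.5 was higher in 50 of 67 (median 0.23) and 60 of 62 (0.78), against 43.4% of all features. P12 was above e15.5 in 56 of 67 mitochondrial ribosomal genes and 59 of 62 respiratory chain genes, against 49.3% of all features. It was above e16.5 in 52 of 67 (median 0.15) and 59 of 62 (0.99), against 46.8%, and above e17.5 in 30 of 67 (-0.05) and 56 of 62 (0.53), against 47.7%. Relative to e17.5, 37 of the 67 were lower at P12, a share (55.2%) near that of all features (52.3%). From e18.5 to P12 the mitochondrial ribosomal genes split evenly, with 34 higher and 33 lower (median 0.02). Of the respiratory chain genes 50 of 62 were higher at P12 (median 0.26), against 48.3% of all features.

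The cytosolic ribosomal proteins bear on these directions, since 38 of 52 fell over the series and 0 rose (median slope -0.12), and centring on them sets their own mean change to 0. Under that centring P12 was higher than e18.5 in 64 of 67 mitochondrial ribosomal genes (median 0.60), in 60 of 62 respiratory chain genes (0.84) and in 88.5% of all features (0.56). Centring moves every gene of an array alike. The gap between the medians of the 2 lists was therefore -0.24 for P12 minus e18.5 and -0.44 for e18.5 minus e15.5 on either scale, mitochondrial ribosomal genes minus respiratory chain.

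The stage of the highest value differed as well with the values as deposited. For 32 of the 67 mitochondrial ribosomal genes it was e17.5 or e18.5, against 10 of 62 respiratory chain genes and 15.1% of all features. For 23 of the 67 it was P5 or P12, against 48 of 62 and 31.1% of all. This difference was not seen under the cytosolic centring, where the counts were 1 and 62 for the mitochondrial ribosomal genes, 1 and 60 for the respiratory chain, and 3.25% and 78.8% of all features. With the values as deposited, the lowest value was at e15.5 or e16.5 in 46 of the 67, against 58 of 62 and 35.3% of all features. Without e15.5 and P0, it was at e16.5 in 30 of the 67, against 57 of 62 and 26.0% of all.

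**Figure D3:**
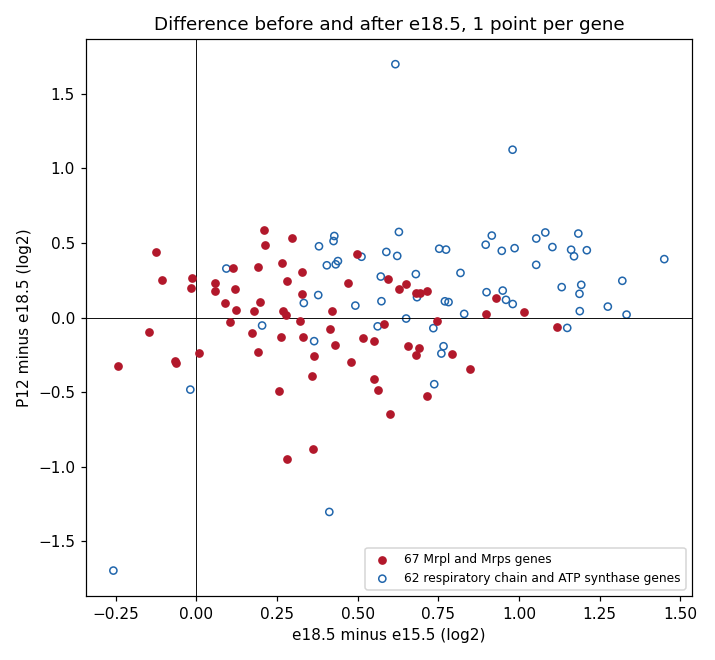
Log2 difference between e18.5 and e15.5 (x axis) and between P12 and e18.5 (y axis), 1 point per gene, for 67 mitochondrial ribosomal genes (filled) and 62 respiratory chain and ATP synthase genes (open), with the values as deposited. The filled points lie to the left and spread evenly around 0 on the y axis (34 above, 33 below), while 50 of the 62 open points lie above 0.

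Within the respiratory chain the complexes differed in how far they resembled the mitochondrial ribosomal genes. The trend was upwards in 24 of 29 complex I genes, 3 of 3 complex II genes, 6 of 7 complex III genes and 9 of 10 complex IV genes, with none downwards. All 29 complex I genes were higher at P12 than at e18.5. ATP synthase was the exception, with 5 of 13 genes rising and 1 falling, 4 of 13 higher at P12 than at e18.5, and 8 of 13 highest at e17.5 or e18.5. Atp5g1, which encodes a copy of the membrane ring subunit c, was the 1 that fell (-0.29 per stage, SE 0.05, adjusted p = 0.00329). The largest slope was in the complex I gene Ndufb10, with 7.53, 7.48, 8.0 and 8.15 before birth and 8.39, 8.14, 9.52 and 9.85 after it (0.32, SE 0.05, adjusted p = 0.00325). That slope is over that of Mrpl2, the steepest mitochondrial ribosomal gene (0.14).

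A further comparison set postnatal against embryonic stages. No mitochondrial ribosomal gene passed in either direction by limma with adjustment over all features (0 and 0 of 67), where 0.0134% of all features passed upwards and 0.0% downwards. At an unadjusted p under 0.05, 6 were higher after birth (14.5% of all features) and 0 lower (18.4%). The nearest to the threshold was Mrps24, which averaged 12.63 ± 0.19 in postnatal and 12.14 ± 0.12 in embryonic stages (SD, n = 4 each; difference 0.49, limma adjusted p = 0.0616). All 4 postnatal arrays lay above all 4 embryonic arrays in 6 of the 67 genes (8.21% of all features) and below them in 0 (10.7%). Without e15.5 and P0, the 3 remaining postnatal arrays lay above the 3 embryonic ones in 7 of the 67 genes (15.4% of all features). Without e18.5, 5 genes passed upwards. The share of all features is not given for that setting, so this count is not read as particular to these genes. A difference between the periods cannot be told apart from a steady change over stage.

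Curvature was tested next, as the height of the middle stages over a straight line (a bow, in log2 units). No gene passed after adjustment (0 up and 0 down of 67, against 0.524% and 0.175% of all features). At an unadjusted p under 0.05, 16 were bowed upwards (11.1% of all) and 0 downwards (9.47%), and 54 of the 67 had a bow above 0, against 48.9% of all features. Without e15.5 and P0, these counts were 6 (6.04% of all) and 40 (45.1%). Mrps12, which encodes the counterpart of the decoding-site protein S12, was nearest, with 10.82, 11.15, 11.37 and 11.10 in the embryonic stages and 11.16, 11.16, 10.71 and 10.16 in the postnatal ones. It stood highest at e17.5 and lowest at P12, with a bow of 0.74 (SE 0.13, adjusted p = 0.0646). Its slope of -0.09 did not pass (SE 0.05, adjusted p = 0.164) and turned positive under the cytosolic centring. The respiratory chain had a median bow of 0.22, next to 0.20 for the mitochondrial ribosomal genes and -0.01 for all features.

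Mrpl12 encodes the stalk protein L7/L12, which also binds the mitochondrial RNA polymerase, and its promoter is printed above with its NRF1 motif. Its level was 11.08, 11.54, 11.88 and 11.77 in the embryonic stages and 11.64, 11.56, 11.54 and 11.56 in the postnatal ones. It stood lowest at e15.5 and was level after birth, with no slope past the test (0.03, SE 0.03, adjusted p = 0.553). The 3 paralogues of bacterial S18 differed in shape. Mrps18a, whose protein sits in the large subunit, had 9.32, 9.79, 9.99 and 10.04 and then 9.60, 9.58, 9.57 and 9.51, so its peak was at e18.5 (slope -0.02, SE 0.04, adjusted p = 0.725). Mrps18b had 10.0045, 10.11, 10.40 and 10.33, then 10.28, 10.05, 10.03 and 10.20 (slope 0.00, SE 0.03, adjusted p = 0.964). Mrps18c had 8.92, 8.88, 9.33 and 9.57, then 9.55, 9.52, 9.26 and 9.38 (slope 0.07, SE 0.03, adjusted p = 0.136). None of the paralogues passed. At P2, Mrps18c was nearer to its own e18.5 level than the other paralogues were to theirs.

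Mrps30, a protein of the large subunit, had 10.23, 10.38, 10.69 and 10.97 in the embryonic stages and 10.88, 10.70, 10.70 and 10.95 in the postnatal ones. Its highest array was e18.5, it was lower at P2 and P5, and P12 came back near the e18.5 level. It missed the threshold (slope 0.08, SE 0.03, adjusted p = 0.0629). Mrps27, a pentatricopeptide repeat protein, had 7.73, 7.81, 7.89 and 7.58, then 7.74, 7.68, 7.52 and 7.48. Its values stayed close to the minimum for testing (slope -0.04, SE 0.02, adjusted p = 0.108). Mrps36 lay between 6.77 and 6.88 and was not tested. Mrpl44 and Mrpl41 had no probe of that name here.

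**Figure D4:**
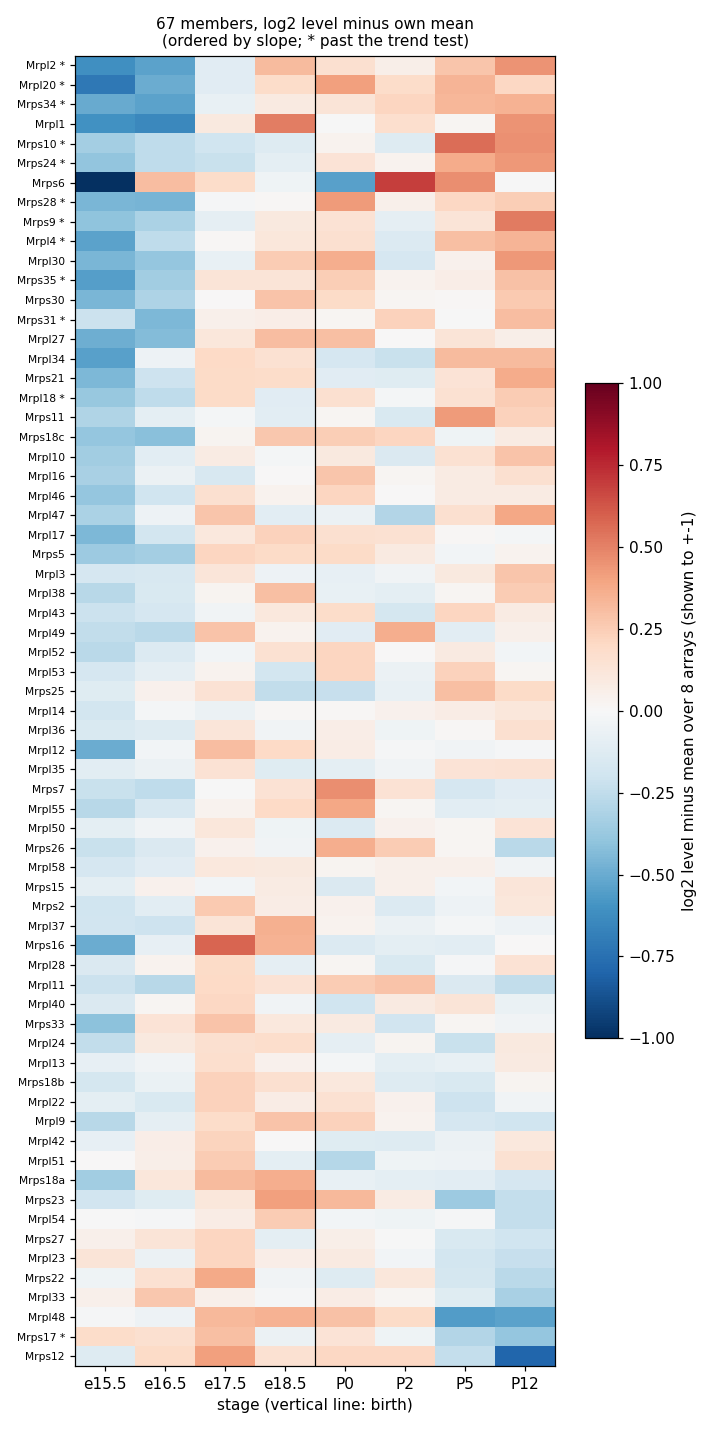
Each of the 67 tested mitochondrial ribosomal genes (rows, ordered by slope) at each stage (columns), as log2 level minus its own mean over the 8 arrays, with colour limits at 1 log2 unit either way and an asterisk on the 12 genes past the trend test. The e15.5 column is below the mean in most rows, and the lower rows, which end with Mrps12, are above it at e17.5 and below it at P12.

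Single steps between neighbouring stages have no replicate, so genes past 1.5-fold were counted without a test. Mrps6, the counterpart of bacterial S6, was the 1 member past that size between e15.5 and e16.5 (1.37 log2 higher at e16.5; 4.69% of all features higher and 5.77% lower), followed by Mrps33 (0.55) and Mrpl34 (0.49). The largest differences the other way were in Mrps31 (-0.23), Mrpl23 (-0.19) and Mrpl11 (-0.06). The dimmer Mrps31 probes past the minimum were higher at e16.5 than at e15.5 (9.93 against 9.86, and 8.55 against 8.48). Mrps6 had 9.30, 10.67, 10.54 and 10.32 in the embryonic stages and 9.82, 11.05, 10.82 and 10.36 in the postnatal ones. Its low arrays were e15.5 and P0, those with the highest muscle and epidermal marker means, and its slope of 0.11 (SE 0.07, adjusted p = 0.251) was -0.01 with the muscle mean as a covariate. Mrps6 overlaps Slc5a3 in the RefSeq annotation, and which of the 2 transcripts its probe reads was not tested. In all, 19 of the 76 genes overlap another protein-coding gene, among them Mrpl2 (with Klc4), Mrpl18 (with Tcp1), Mrps18a (with Rsph9) and Mrpl48 (with Rab6a).

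At e17.5, Mrpl1 (0.74) and Mrps16 (0.66) were past 1.5-fold over e16.5 (5.86% of all features higher, 2.73% lower), followed by Mrps5 (0.55), and Mrpl33 (-0.22), Mrps6 (-0.13) and Mrpl16 (-0.10) lay lowest. The dimmer Mrpl33 probe was higher at e17.5 than at e16.5 (11.54 against 11.41). Mrpl1 encodes the mobile stalk protein L1, and Mrps16 the counterpart of bacterial S16. At e18.5 over e17.5 no gene passed either way (5.45% of all features higher, 4.22% lower), with Mrpl2 (0.43), Mrpl1 (0.41) and Mrpl30 (0.33) at one end and Mrps22 (-0.41), Mrps25 (-0.40) and Mrpl47 (-0.38) at the other. The median of the members at this step was -0.03 and that of the respiratory chain 0.28.

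Birth itself brought no member past 1.5-fold (P0 over e18.5, 4.28% of all features higher and 4.94% lower). The extremes were Mrps28 (0.41), Mrps26 (0.39) and Mrpl53 (0.39) upwards and Mrpl1 (-0.52), Mrps6 (-0.50) and Mrps16 (-0.49) downwards. Between P0 and P2, Mrps6 was again past it (1.23; 3.42% of all features higher, 3.96% lower), followed by Mrpl49 (0.48) and Mrpl40 (0.29), with Mrpl30 (-0.53), Mrps28 (-0.37) and Mrpl55 (-0.37) lowest. The steps to and from P0 involve an array high in muscle and epidermal markers.

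At P5, Mrps10 was past 1.5-fold over P2 (0.69; 5.21% of all features higher) and Mrpl48 below it (-0.75; 5.98% lower). Mrps11 (0.58) and Mrpl34 (0.54) came next upwards, and Mrpl49 (-0.47) and Mrps12 (-0.45) downwards. The dimmer Mrpl49 probes past the minimum, both close to it, were higher at P5 than at P2 (7.70 against 7.68, and 7.69 against 7.61). Mrpl48 had 10.28, 10.24, 10.62 and 10.64 before birth and 10.59, 10.48, 9.73 and 9.76 after it, so the lower level was also seen at P12. Its 3 probes past the minimum disagreed on the size of this step: P5 minus P2 was -0.75 and -0.81 on the brightest 2 and -0.19 on the third, whose slope was 0.00. At P12 over P5 no member passed (3.83% of all features higher, 2.98% lower), with Mrpl1 (0.43), Mrpl30 (0.40) and Mrps9 (0.39) highest and Mrps12 (-0.55), Mrps6 (-0.47) and Mrps26 (-0.28) lowest.

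The other genes of mitochondrial translation and upkeep are read against the 18.3% of all features that rose and the 20.7% that fell. Of 3 mitochondrial ribosomal proteins known by other names (Dap3, Ptcd3 and Chchd1), none passed, and their slopes ran from -0.06 to 0.00. Among 10 mitochondrial translation factors 2 rose (20.0%) and 0 fell: the elongation factor Gfm1 (0.09, SE 0.02, adjusted p = 0.00873) and the release factor Mtrf1 (0.07, SE 0.02, adjusted p = 0.0273). Among 14 assembly factors 3 rose (21.4%) and 0 fell. They were Mpv17l2 (0.18, SE 0.03, adjusted p = 0.00531), Nsun4, an rRNA methyltransferase (0.09, SE 0.02, adjusted p = 0.0133), and Mterf3 (0.09, SE 0.02, adjusted p = 0.00561). Of 8 mitochondrial tRNA synthetases 2 rose (25%) and 0 fell, Fars2 for phenylalanine (0.20, SE 0.04, adjusted p = 0.00546) and Vars2 for valine (0.13, SE 0.02, adjusted p = 0.00411).

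Of 10 genes of mitochondrial DNA transcription and upkeep 1 rose (10%) and 0 fell, the transcription factor Tfb2m (0.12, SE 0.03, adjusted p = 0.0112). Of 17 genes of mitochondrial protein import, which brings these ribosomal proteins into the matrix, 6 rose (35.3%) and 1 fell. Examples are Pam16 (0.15, SE 0.03, adjusted p = 0.00423) and Timm17a (0.12, SE 0.02, adjusted p = 0.00333), and the fall was in Tomm22, which stood at 7.04 at P5, against 10.34 at P2 (slope -0.49, SE 0.15, adjusted p = 0.0314). Among 6 regulators of mitochondrial biogenesis, Esrra rose (0.17, SE 0.04, adjusted p = 0.00712) and Nrf1, whose motif is described above, fell (-0.09, SE 0.02, adjusted p = 0.0105). Of the cell-state lists, 18 of 18 cell cycle genes fell and 5 of 6 brown fat genes rose, while 4 of 6 erythroid genes fell. No gene of the mitochondrial genome was among the named probes used here.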

How the data were processed

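RNA of 8 pools, 1 per stage, was hybridized to Illumina MouseRef-8 arrays with BeadStudio for the read-out (per the labels' protocols). As deposited, values are the authors' processed intensities on a scale read as log2 from its range (6.66 to 15.1). For background treatment and normalization, the method is not stated in these sources. The sorted values of the 8 arrays were equal to within 0.005. A second table with 16 columns of per-sample values that match no label was not used. Of 25697 probes, 23978 carried 1 gene symbol in the platform annotation, 0 several and 1719 none.

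Lines over stage, the postnatal minus embryonic difference and curvature were fitted with limma 3.58.1 in R 4.3.3 on 7446 features, with Benjamini-Hochberg adjustment at 0.05. Arrays were simulated from 7446 features, with 50 features changed at each size. The trend test recovered 18% of slopes of 0.1 log2 per stage, 80% of 0.2 and 92% of 0.4. Of its 98 calls, 3.06% were unchanged features. In the data 1363 features rose and 1542 fell. The adjusted trend threshold was therefore stricter in the simulation, and these trend shares do not carry over to the data. The period test recovered 18%, 74% and 90% of differences of 0.5, 1 and 2, and the curvature test 18%, 60% and 94% of bows of those sizes. These tests made 95 and 90 calls in the simulation. In the data the period test put 1 feature past the threshold upwards and 0 downwards, and the curvature test 39 and 13. Both adjusted thresholds were therefore laxer in the simulation, and these shares do not carry over to the data either.

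The genes and gene lists were chosen with earlier results of these data known. Named by rule were the 8 largest rises and falls past the trend threshold, up to 4 members each way past the other tests, the 3 largest differences each way at each step, a fixed set of 10, and up to 4 genes of each other list by size of slope. Promoters came from RefSeq and were searched with Python 3.11.15. Alternatives changed the filter, the probe per gene, the weights, the arrays used, the covariates, the scaling and the time axis.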

Additional observations from a re-analysis of the deposited data

How the results depend on the processing

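No paired analysis was possible because each stage is a single array with no replicate number to pair. The cause of the differences below was not tested. The count of mitochondrial ribosomal genes that rose, 11, was 2 with the epidermal covariate, 3 without e15.5 and P0, 6 with the muscle covariate, 64 with centring on the cytosolic ribosomal genes, 4 on a scale of days, 17 on log2 days and 2 without P5 and P12, and ran from 4 to 13 with single arrays left out. The count that fell, 1, was 2 with the dimmest probe and with the mean of probes, 3 with array weights and on days, 0 with either covariate, with the centring and without P5 and P12, and 0 to 3 with single arrays left out. Of all features 20.7% fell in the trend test above and 2.99% with the centring. Shares that fell are not given for the remaining settings, so those counts are not read as particular to the members. The period counts, 0 and 0, became 2 and 2 with array weights. Upwards it was 1 with the epidermal covariate, 30 with the centring and 0 to 5 with single arrays left out, where 5 came without e18.5. Shares of all features are not given for these period settings, so these counts are not read as particular to the members. In the trend test, the centring put 61.6% of all features past the threshold upwards. The curvature counts stayed at 0 both ways under every alternative run. Steps past 1.5-fold, 5 up and 1 down, numbered 49 and 23 at the lower of the other folds tried, and 2 and 0 at 2-fold. These are sums over all steps. At the lower fold, the share of members that were higher exceeded that of all features only at e17.5 over e16.5. It lay below that of all features at every other step. The share of members that were lower lay below that of all features at every step. Both steps past 2-fold were in Mrps6. The median of P12 minus e18.5 was 0.00 (-0.0019) with a level of 7.5 on all 8 arrays. With the centring, an alternative chosen after seeing the data, it was 0.60 and that of the respiratory chain 0.84, and e18.5 minus e15.5 became 0.46 and 0.90. The counts without e15.5 and P0 of lowest arrays, of bows above 0 or at an unadjusted p and of periods that do not overlap were also added after seeing the data.

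Some slopes turned sign. With the centring, Mrps17 had 0.0391, Mrps12 0.0348, Mrps18a 0.1054, Mrps18b 0.1214 and Mrps27 0.0795. Without P5 and P12, Mrps12 had 0.0418, Mrps18a 0.0217 and Mrps18b 0.0189. Mrpl12 had -0.0116 with array weights, -0.0296 without e15.5 and P0, -0.0101 with the muscle covariate and -0.0213 with the epidermal one, and Mrps6 had -0.0055 with the muscle covariate. Mrps18b had 0.0555 with the dimmest probe, 0.0270 with the mean of probes and 0.0091 on log2 days. With single arrays left out, Mrpl12 ran from -0.0296 (without e15.5) to 0.0425 and Mrps18b from -0.0269 to 0.0103. With 1 array per stage, the simulation recovered 18% of slopes of 0.1 log2 per stage. It changed far fewer features than passed in the data, so its threshold was stricter. That share cannot tell how many such slopes the test missed here.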
